A study of Homo sapiens with 6 samples.

Results

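The HIST1 gene cluster of 6p22 holds 55 replication-dependent histone genes on chromosome 6 (hg19). Its members were chosen by position: every 40 kb bin in which a HIST1 gene starts, and 1 Mb on each side, in the Hi-C contact map of each condition, with the topologically associating domains (TADs) of both deposited lists. The genes fell in 13 bins, of 59714 usable autosomal bins, inside a window of 108 bins (chr6:24680001-29000000), of which 102 were usable. Of the genes, 52 were placed by the annotation, and HIST1H2BF, HIST1H2BG and HIST1H4F were placed by an exact match of their promoter to the genome. LNCaP is an established androgen-responsive line from prostate cancer. The cells received siRNA pools at 20 nM, either non-targeting (control siRNA) or against CTCF (CTCF siRNA), were split and given the siRNA once more, and were collected at 144 h. The labels give 2 control siRNA and 4 CTCF siRNA libraries, and the deposited data hold 1 pooled map per condition. Of the 4, 2 repeat the replicate numbers of the other two with a suffix, and the labels do not say whether these are separate cultures or further runs of the same ones, so 4 is a number of libraries and not of cultures. No replicate could therefore be compared, no p-value was computed, and every 95% interval covers counting error only.

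Histones are the proteins around which DNA is wound. The HIST1 genes supply most of the histone protein made while DNA is copied: they encode the core histones H2A, H2B, H3 and H4 and the linker histone H1, and they are transcribed together in S phase at nuclear sites called histone locus bodies. The butyrophilin genes that lie among them encode membrane proteins of the immunoglobulin superfamily, of which the BTN3A proteins take part in the recognition of phosphoantigens by γδ T cells, and they are not histone genes in sequence or in function. CTCF is a DNA-binding protein found at many TAD boundaries, where it limits contacts between neighbouring domains.

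HIST1 bins at most 200 kb apart were joined, which gave 4 groups. HIST1H2AA and HIST1H2BA, which encode histones best known from the testis, formed a distal pair in 1 bin (chr6:25720001-25760000). The first group held 32 genes in 8 bins (chr6:26000001-26320000), with all of the 5 histone subtypes. From left to right its bins held HIST1H1A, HIST1H2AB, HIST1H3A, HIST1H3B, HIST1H4A and HIST1H4B, then HIST1H1C, HIST1H2BB and HIST1H3C, then HIST1H1T and HIST1H4C, which lie beside the iron-regulation gene HFE, then HIST1H1E, HIST1H2AC, HIST1H2BC and HIST1H2BD. The remaining bins of the first group held HIST1H2AD, HIST1H2BE, HIST1H2BF, HIST1H3D and HIST1H4D, then HIST1H1D, HIST1H2AE, HIST1H2BG, HIST1H3E and HIST1H4E, then HIST1H2BH, HIST1H2BI, HIST1H3F, HIST1H3G, HIST1H4F and HIST1H4G, and last HIST1H4H alone. The middle group held HIST1H2AG, HIST1H2AH, HIST1H2BJ, HIST1H2BK and HIST1H4I in 1 bin (chr6:27080001-27120000). The last group held 16 genes in 3 bins (chr6:27760001-27880000): HIST1H2AI, HIST1H2AJ, HIST1H2BL, HIST1H2BM, HIST1H3H, HIST1H4J and HIST1H4K, then HIST1H1B, HIST1H2AK, HIST1H2AL and HIST1H2BN, then HIST1H2AM, HIST1H2BO, HIST1H3I, HIST1H3J and HIST1H4L. The first group lay 760 kb from the middle group and 1440 kb from the last, and 640 kb separated the middle from the last. The 7 butyrophilin genes (BTN3A2, BTN2A2, BTN3A1, the pseudogene BTN2A3P, BTN3A3, BTN2A1 and BTN1A1) filled 4 bins (chr6:26360001-26520000) that began 40 kb beyond the first group.

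To show what members of distant groups share in sequence, the 100 bases before the start of the first H2B gene of the first, middle and last groups are given, from RefSeq promoters placed on GRCh37 by exact match. HIST1H2BB lies at chr6:26043942-26044041, HIST1H2BJ at chr6:27100575-27100674 and HIST1H2BL at chr6:27775708-27775807, all on the minus strand and all upstream of the transcript. Capitals mark CCAAT and also TATAAA and the motif ATTTGCAT, an octamer long known from H2B promoters, where they matched on either strand.
HIST1H2BB: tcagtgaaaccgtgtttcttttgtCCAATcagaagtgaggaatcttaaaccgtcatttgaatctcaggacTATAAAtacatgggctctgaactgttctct
HIST1H2BJ: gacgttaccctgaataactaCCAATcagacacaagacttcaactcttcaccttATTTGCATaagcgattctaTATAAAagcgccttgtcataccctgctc
HIST1H2BL: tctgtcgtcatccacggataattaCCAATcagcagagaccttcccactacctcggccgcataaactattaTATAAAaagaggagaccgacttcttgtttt
All 3 stretches held CCAAT and TATAAA in the same order, and only that of HIST1H2BJ held the octamer. In the 250 bases before the start, CCAAT was present in 43 of the 50 HIST1 promoters listed in RefSeq (86%), against 32.7% of all 27305 promoters. It was present in all 15 H2B promoters and in 3 of 10 H4 promoters. TATAAA was present in 33 of 50 (66%, against 11.4% of all promoters). The octamer was present in 21 of 50 (42%, against 1.68%), of which 12 were H2B and 9 were H2A promoters. Many H2A and H2B genes start back to back, as HIST1H2BJ and HIST1H2AG do. Their 250 bases overlap and both strands were searched, so the same match can count for both genes. The counts are therefore of promoters and not of separate matches. By group, CCAAT was in 25 of 30 promoters of the first group, 4 of 4 of the middle and 12 of 14 of the last. TATAAA was in 18, 3 and 10 of them. The octamer was in 11, 3 and 5, which is 36.7%, 75% and 35.7%, with only 4 promoters in the middle group. Both promoters of the distal pair, which overlap, held all 3.

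The CTCF core motif, searched on both strands, had 7 matches in the window and 1 in a histone bin, and 13.6% of 66918 autosomal bins held at least 1. A pair of these matches is shown with 5 bases on each side and the match in capitals, because one lay in a histone bin that held a TAD boundary and the other in the bin of ABT1, between the butyrophilin genes and the middle group. The other histone bins with a boundary held no match.
first group, HFE bin, chr6:26080560-26080571, minus strand: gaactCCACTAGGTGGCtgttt
ABT1 bin, chr6:26596172-26596183, minus strand: cgcgaCCAGCAGGGGGCgccgt
The match in the first group lay in the bin of HIST1H1T, HIST1H4C and HFE (chr6:26080001-26120000). No match lay in the bins of the middle group, the last group or the butyrophilin genes. A match is a description of the letters and not a measurement of binding, and the absence of one says nothing of other forms of the motif.

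The maps held 26174567 read pairs in control siRNA and 87657627 in CTCF siRNA, of which 13665296 and 56304154 joined bins of the same chromosome (cis contacts). The deposited contact values could be written as whole counts multiplied by a factor for the position of each bin of the pair. After division by the estimated factors, 99.57% of the values between positions near the cluster came out whole in control siRNA and 99.4% in CTCF siRNA, within a tolerance of 0.010 plus 0.05% of the value. The recovered counts were used below. Histone bins were covered thinly. The cis count per bin of the first group was 84 to 279 in control siRNA (median 117) and 484 to 1112 in CTCF siRNA (median 763.5), where the chromosome 6 medians were 336 and 1066. The middle bin held 112 and 472 cis contacts, and the bins of the last group held 145 to 204 and 613 to 884. The butyrophilin bins held 206 to 389 and 1244 to 2420. GC content was 41.1% to 43.4% in the first group and 43.9% to 44.8% in the butyrophilin bins. The first group had 5 to 13 sites of the enzyme BglII (AGATCT) per bin and the butyrophilin bins 10 to 18, beside a chromosome median of 11. The part of GC content and BglII sites in the results was not tested, and how the values depended on coverage is given below.

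The comparison the region invites is whether the separate histone groups contacted each other more than their distance and coverage predict, and whether the butyrophilin genes between them did so too. The expected count of a pair of bins was the product of a coverage term for each bin and the mean decay of contacts with distance on chromosome 6, fitted to each map. In control siRNA the 3 pairs of histone groups held 45 read pairs where 7.16 were expected, a value of 6.29 observed over expected (95% interval 4.59 to 8.41). In CTCF siRNA they held 106 where 35.8 were expected, a value of 2.96 (2.42 to 3.58). Both intervals lay above 1, and they did not overlap.

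All 3 pairs of groups took part in control siRNA. The first and last groups, the most distant, were joined by 26 read pairs against 3.52 expected, or 7.38 (4.82 to 10.8). The first and middle groups were joined by 10 against 2.11, or 4.74 (2.27 to 8.72). The middle and last groups were joined by 9 against 1.53, or 5.9 (2.7 to 11.2). These 3 intervals overlapped, so no order among the pairs can be read from them. The contacts were spread out: the first and last groups touched in 18 of their 24 bin pairs, with at most 3 read pairs in any, and the first and middle groups in 6 of 8. Of the 9 read pairs between the middle and last groups, 6 lay in 1 bin pair.

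**Figure D1:**
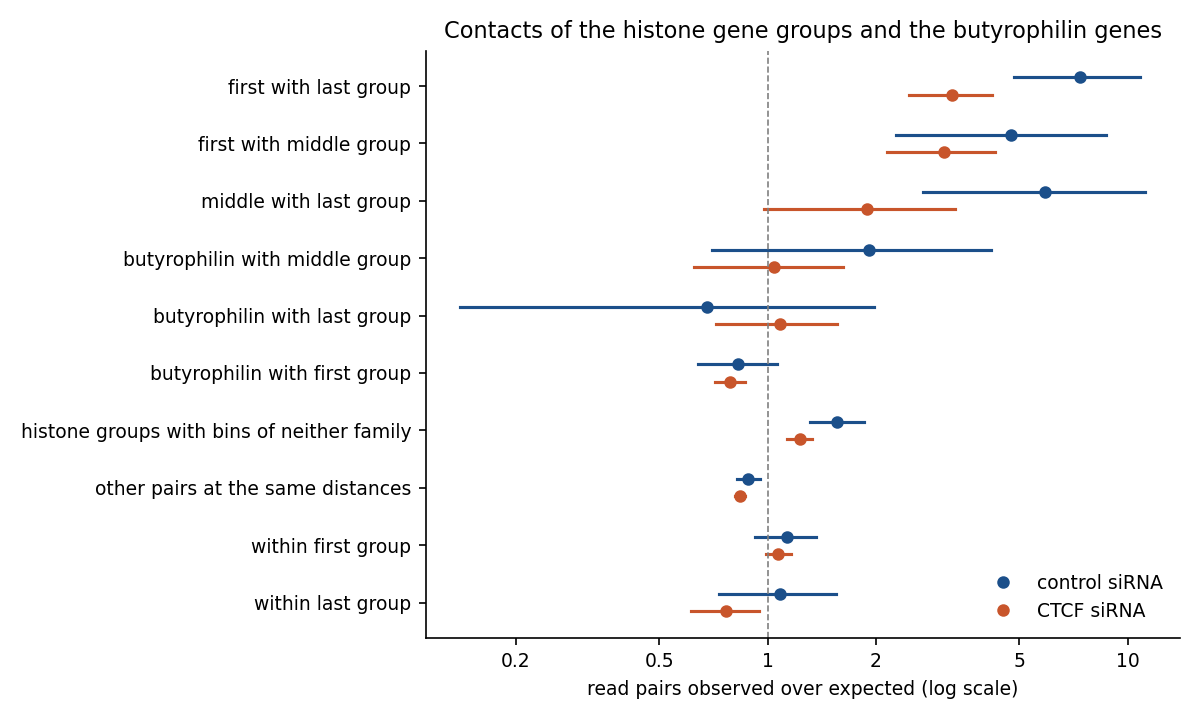
Read pairs observed over expected (log scale) for pairs of gene groups and for bins of other kinds, in control siRNA (blue) and CTCF siRNA (orange), 1 pooled map each; points are values and lines are 95% counting intervals. The 3 pairs of histone groups lie at 4.74 to 7.38 in control siRNA, while the butyrophilin genes and the other pairs of the window lie closer to the dashed line at 1.

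These values depended on how coverage was handled. With an expected value from distance alone, which takes no account of the thin coverage of histone bins, the 3 pairs together stood at 1.87 in control siRNA and 1.14 in CTCF siRNA. The first and last groups remained at 2.6 and 1.56, whereas the first and middle groups came to 1.1 and 0.978 and the middle and last groups to 1.8 and 0.616. With bin coverage taken from contacts between chromosomes, which the contacts described here do not enter, the 3 pairs together stood at 5.07 and 3.12. In the main setting the histone pairs enter the fit of their own expected value. With these pairs left out of the fit, they stood together at 7.26 in control siRNA and 3.14 in CTCF siRNA.

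As background, the same arrangement of 3 blocks was placed at every other autosomal position with at least 5 expected contacts, where placements overlap and share contacts. A value of at least 2 in control siRNA was reached by 5.82% of 55184 placements, and in CTCF siRNA by 1.33%. Among the 836 placements with 5 to 10 expected contacts in control siRNA, about as many as the histone groups have, the share was 8.97%. The median over all placements was 0.866 in control siRNA and 0.998 in CTCF siRNA. The histone groups passed this fold in both maps.

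**Figure D2:**
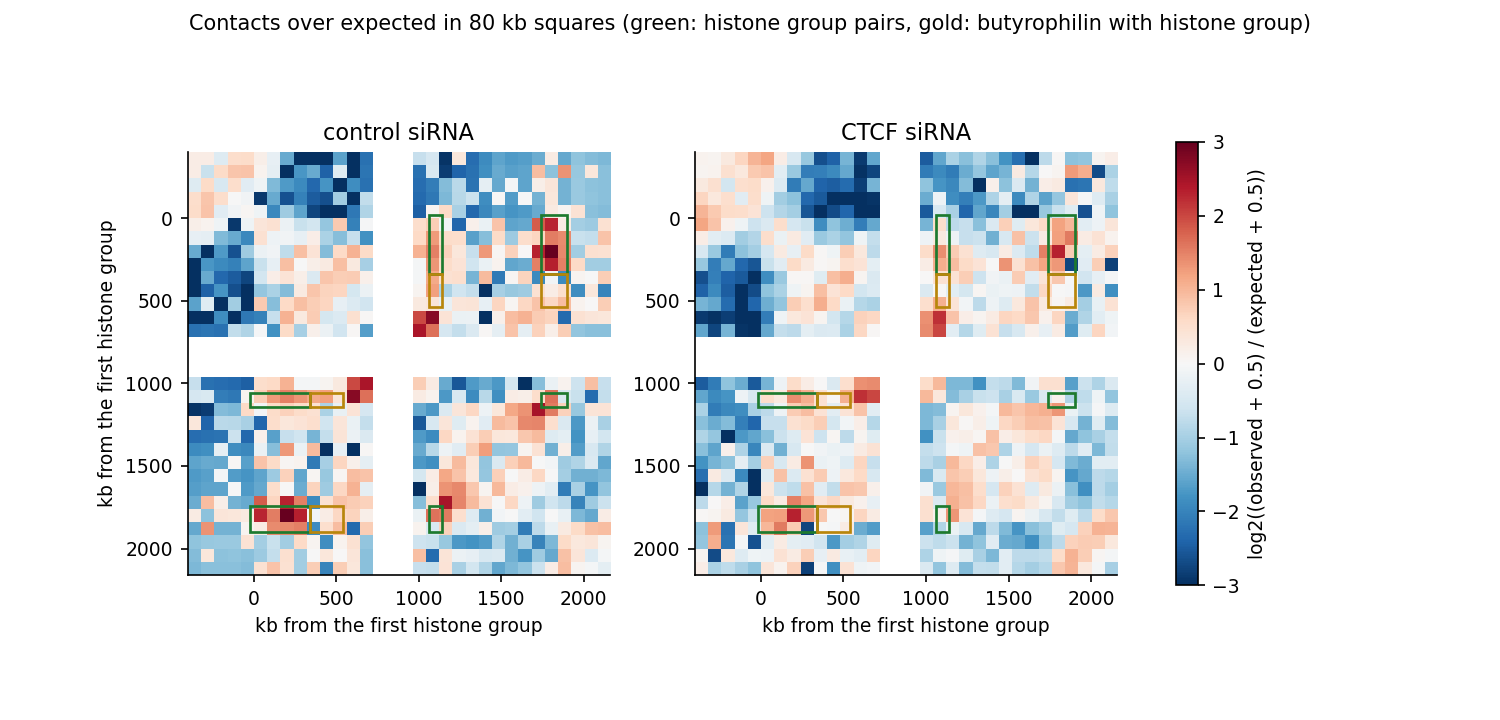
Contacts over expected in squares of 80 kb around the cluster, as log2 of observed plus 0.5 over expected plus 0.5, in control siRNA (left) and CTCF siRNA (right); both axes give kb from the start of the first histone group, green frames mark pairs of histone groups, gold frames the butyrophilin genes with a histone group, and white bands are unusable bins. The frame of the first and last groups, which holds 26 read pairs in control siRNA and 59 in CTCF siRNA, is red in both maps and deeper in the first, and red squares outside the frames join bins at the middle group to bins beyond the butyrophilin genes.

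The contacts were also counted for single bins, for which no background over other bins was computed. Each of the 12 bins of the first, middle and last groups stood above 1 with the bins of the other groups in both maps. The whole interval lay above 1 in 9 of them in control siRNA and in 10 in CTCF siRNA. Of the 4 butyrophilin bins, 2 and 3 stood above 1 with the middle and last groups, none with its whole interval above 1. Each read pair counts for both of its bins, so the 12 values are not independent. In control siRNA the highest value of the first group was in the bin of HIST1H1D, HIST1H2AE, HIST1H2BG, HIST1H3E and HIST1H4E, with 7 read pairs against 0.674 expected, or 10.4 (4.17 to 21.4). The bin of HIST1H2AD, HIST1H2BE, HIST1H2BF, HIST1H3D and HIST1H4D had 7 against 0.985, or 7.1 (2.86 to 14.6). The bin that HIST1H4H holds alone still had 6 against 0.829, or 7.24 (2.66 to 15.8). The bin of HIST1H1C, HIST1H2BB and HIST1H3C had the lowest value, 2 against 0.505, or 3.96 (0.48 to 14.3). The intervals of the 8 bins of the first group all overlapped, so no order among them can be read.

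In the last group, the bins of HIST1H2BL and its neighbours and of HIST1H1B and its neighbours stood at 9.25 (5.48 to 14.6) and 9.52 (4.92 to 16.6) in control siRNA. The bin of HIST1H2AM, HIST1H2BO, HIST1H3I, HIST1H3J and HIST1H4L stood at 2.72 (0.882 to 6.34). In CTCF siRNA these 3 bins came to 3.27, 2.67 and 2.61, closer to each other. The middle bin, with the HIST1H2BJ and HIST1H2BK genes, stood at 5.23 (3.15 to 8.16) and 2.66 (1.95 to 3.53). Leaving out any 1 of the 12 bins kept the pooled value between 5.18 and 7.52 in control siRNA and between 2.72 and 3.25 in CTCF siRNA.

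**Figure D3:**
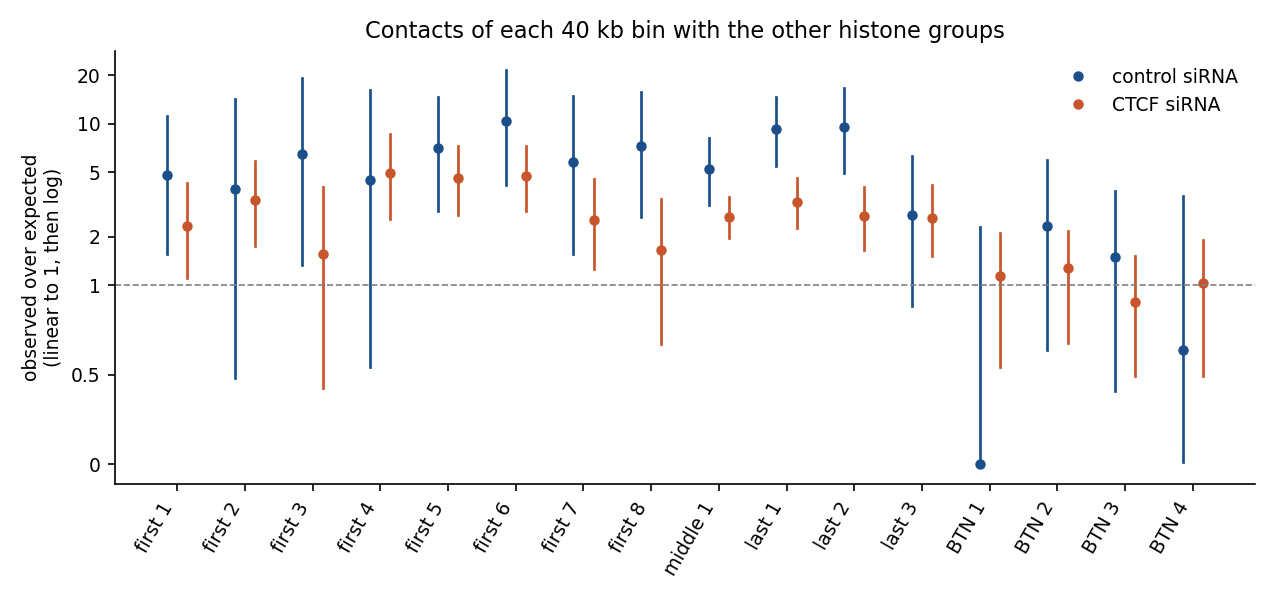
Observed over expected contacts (linear to 1, then log) of each 40 kb bin of the first (8 bins), middle (1) and last (3) histone groups with the bins of the other histone groups, and of the 4 butyrophilin bins (BTN) with the middle and last groups; blue is control siRNA, orange is CTCF siRNA, and lines are 95% counting intervals. All 12 histone bins lie above 1 in both maps, and 9 in control siRNA and 10 in CTCF siRNA have whole intervals above 1. Of the 4 butyrophilin bins, 2 in control siRNA and 3 in CTCF siRNA lie above 1, all with intervals that include 1.

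The butyrophilin genes lay nearer to the middle and last groups than the first group did, and their contacts with both had intervals that included 1. In control siRNA they were joined to the middle and last groups by 9 read pairs against 7.56 expected, or 1.19 (0.545 to 2.26). In CTCF siRNA there were 47 against 44.2, or 1.06 (0.781 to 1.41). With the middle group alone the values were 1.91 (0.702 to 4.16) and 1.04 (0.625 to 1.62), and with the last group 0.679 (0.14 to 1.98) and 1.08 (0.719 to 1.56). The bin of BTN3A1 had the highest value in control siRNA, 4 read pairs or 2.33 (0.636 to 5.97), and the bin of BTN3A2 and BTN2A2 had none, where 1.61 were expected. All 4 butyrophilin bins had intervals that included 1 in both maps.

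The histone value was 5.28 times the butyrophilin value in control siRNA (2.55 to 12.3) and 2.78 times in CTCF siRNA (1.95 to 4.01). With distance alone as the expected value it was 3 times and 1.37 times. With coverage from contacts between chromosomes it was 4.03 times and 2.08 times. The butyrophilin value itself then stood at 1.26 in control siRNA and 1.5 in CTCF siRNA, the second above the interval given for it. For the last group alone, the first histone group stood at 10.9 times the butyrophilin value in control siRNA (3.33 to 56.1) and 3.01 times in CTCF siRNA (1.89 to 4.9). For the middle group the ratio in control siRNA was 2.48 with an interval that included 1 (0.816 to 8.29), and in CTCF siRNA it was 2.97 (1.65 to 5.49). Between the first group and the adjoining butyrophilin genes, contacts were at 0.829 (0.64 to 1.06) and 0.787 (0.714 to 0.865). The 5 rightmost bins of the first group stood at 0.91 (0.678 to 1.2) and 0.963 (0.867 to 1.07) with the butyrophilin genes, and lower values lay in the bins at and left of the TAD boundary, of which the 2 leftmost stood at 0.71 (0.367 to 1.24) and 0.375 (0.272 to 0.503).

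**Figure D4:**
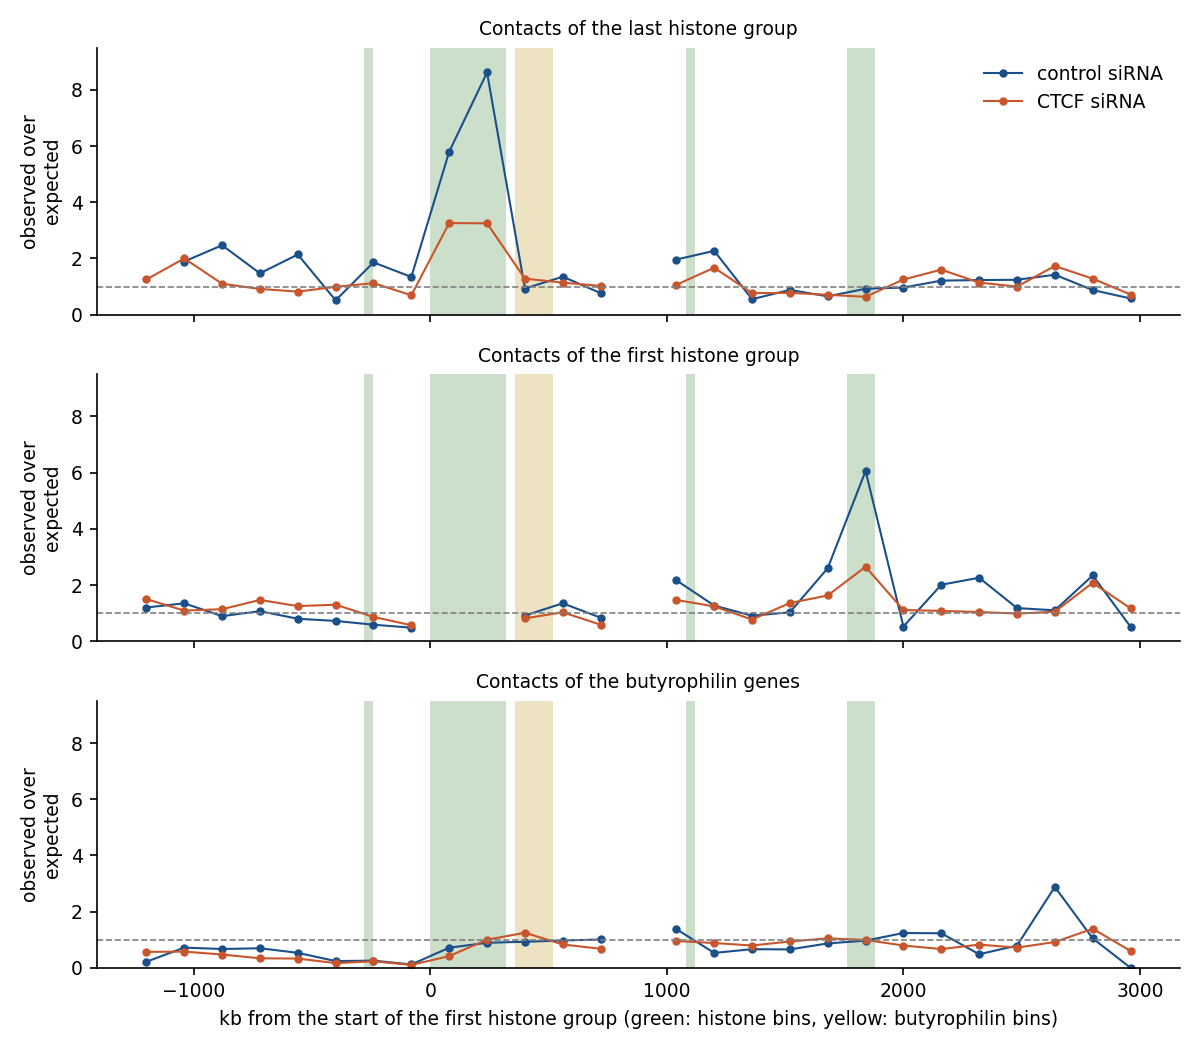
Observed over expected contacts of the last histone group, the first histone group and the butyrophilin genes with consecutive blocks of 160 kb, against distance in kb from the start of the first group; green bands are histone bins, the yellow band is the butyrophilin bins, blue is control siRNA, orange is CTCF siRNA, and blocks with less than 1 expected contact are left out. The profile of the last group peaks over the first group at 5.8 and 8.62 in control siRNA and drops to 0.929 over the butyrophilin genes beside it.

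Along the chromosome, the plotted values of the last group were highest over the first group in both maps. In blocks of 160 kb, the value of the last group in control siRNA was 1.34 just before the first group (chr6:25840001-26000000), 5.8 and 8.62 over its left and right blocks, and 0.929 over the next block, which holds most of the butyrophilin genes. In CTCF siRNA the same blocks stood at 0.689, 3.26, 3.25 and 1.28. Seen from the first group, the block of the last group stood at 6.06 and 2.65, the block before it at 2.6 and 1.63, and the block after it at 0.523 and 1.11. Blocks without a histone gene were raised in places too. The last group stood at 2.27 and 1.67 over chr6:27120001-27280000, and the first group at 2.01, 2.26 and 2.34 in control siRNA over the blocks that start at chr6:28080001, 28240001 and 28720001. The middle group gave a less exclusive profile. Its values over the first group were 3.33 and 5.79 in control siRNA, but the block at chr6:26480001-26640000, which holds BTN1A1, HMGN4 and ABT1 and no histone gene, stood at 4.12 in control siRNA and 3.82 in CTCF siRNA. The next block, chr6:26640001-26800000, stood at 1.84 and 3.92. In CTCF siRNA both values lay above those of the middle group with the first group, 2.48 and 3.52. All usable bins between the butyrophilin genes and the middle group together stood at 1.48 (0.995 to 2.13) and 2.28 (1.93 to 2.67) with the middle group, where the middle and last groups stood at 1.89 (0.979 to 3.31) in CTCF siRNA.

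Bins between the butyrophilin genes and the last group that hold neither gene family gave lower values when pooled. Histone groups with such bins at least 600 kb away stood at 1.56 (1.31 to 1.85) in control siRNA and 1.23 (1.13 to 1.33) in CTCF siRNA, and the contacts between histone groups were 4.03 times (2.81 to 5.69) and 2.41 times (1.94 to 2.97) as high. With distance alone as the expected value, the contacts with bins of neither family fell below 1, at 0.74 and 0.818. All other bin pairs of the window at the distances of the histone pairs, 1324 of them, stood at 0.885 (0.823 to 0.951) and 0.84 (0.813 to 0.868). The histone pairs were 7.1 times (5.14 to 9.6) and 3.52 times (2.87 to 4.27) as high as these. With coverage from contacts between chromosomes the other pairs stood at 0.976 and 1.08, so the second crossed 1.

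The distal pair HIST1H2AA and HIST1H2BA had no read pair with the middle group in either map, and 0 and 1 with the last group. Only 0.39 contacts with the last group were expected in control siRNA and 1.22 in CTCF siRNA, so no difference from expected was detectable at this depth. With the first group the distal pair stood at 0.753 (0.325 to 1.48) and 0.944 (0.672 to 1.29).

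CTCF siRNA was compared with control siRNA for the same contacts. The value of the 3 histone pairs together was 0.47 times the control value (0.329 to 0.682). The first and last groups stood at 0.44 times (0.273 to 0.728) and the middle and last groups at 0.321 times (0.124 to 0.863). The first and middle groups stood at 0.65 times with an interval that included 1 (0.315 to 1.47). With distance alone as the expected value this pair came to 0.887, and with coverage from contacts between chromosomes to 0.93. Under the same alternatives the first and last groups came to 0.601 and 0.565, and the middle and last groups to 0.343 and 0.377. The corresponding ratio was 0.893 (0.433 to 2.07) for the butyrophilin genes with the middle and last groups, whose interval overlapped that of the histone pairs, and 0.949 (0.877 to 1.03) for all other pairs at the same distances. The ratio of the other pairs came to 1.26 with distance alone as the expected value. With coverage from contacts between chromosomes it came to 1.11. Under each alternative that was run, the ratio of the 3 histone pairs together stayed within its interval, and without any 1 of the 12 bins it lay between 0.403 and 0.547.

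As background for the decrease, of all placements of the 3 blocks on the autosomes, 6.95% had a CTCF siRNA value at most 1/1.5 of the control value, but of those with at least 2 in control siRNA 46.5% did, with a median change of 0.679 beside the 0.47 of the histone groups. How many fell to 0.47 was not counted. These placements were chosen for a high control value. When read pairs of the deeper map were drawn down to the control total, the ratio of the 3 histone pairs was 0.453. Single libraries could not be examined, and library and siRNA effects cannot be told apart.

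Within a group, where bins lie side by side, no value of the histone bins had its whole interval above 1. The first group stood at 1.13 (0.922 to 1.36) in control siRNA and 1.07 (0.988 to 1.16) in CTCF siRNA, and the last group at 1.08 (0.731 to 1.55) and 0.767 (0.611 to 0.949). The butyrophilin bins stood at 1.8 (1.55 to 2.08) and 1.65 (1.56 to 1.75) among themselves. With distance alone as the expected value the first group came to 0.287 and 0.48, so its bins held fewer read pairs among themselves than bins of chromosome 6 usually do at these distances. With coverage from contacts between chromosomes the first group stood at 0.773 in control siRNA and 1.18 in CTCF siRNA, on either side of 1.

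TAD boundaries lay in the first, middle and last histone groups, and none lay in the bin of the distal pair, whose insulation value, described below, was 0.31 in control siRNA and 0.49 in CTCF siRNA. Facing edges of neighbouring TADs at most 100 kb apart were taken as 1 boundary, and edges farther apart as a boundary each. Between the first and last histone gene each list held 3 boundaries, and in both lists all 3 touched a histone bin. Boundaries fell in 4 of the 13 histone bins in each list, where 5.84% of usable autosomal bins held a boundary of the control list and 4.42% one of the CTCF siRNA list. Of the 41 other bins between the first and last histone bin, 1 held a boundary in the control list and 0 in the CTCF siRNA list.

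The first boundary lay at chr6:26100000 in control siRNA, in the bin of HIST1H1T, HIST1H4C and HFE, and from chr6:26100000 to 26140000 in CTCF siRNA, where it reached into the bin of HIST1H1E, HIST1H2AC, HIST1H2BC and HIST1H2BD. It thus split the first group. The second lay from chr6:27060000 to 27100000 in control siRNA and at chr6:27100000 in CTCF siRNA, in the bin of the middle group. The third lay from chr6:27780000 to 27820000 in control siRNA and at chr6:27780000 in CTCF siRNA, in the last group. All 3 touched their counterpart in the other list, so they counted as shared when a distance of 0, 40 or 80 kb was allowed. The window held no other boundary of the control list and 4 more of the CTCF siRNA list, at chr6:24740000, 25060000, 25180000 and 28860000, none in a histone bin and each at least 360 kb from a control boundary. Those at chr6:25060000 and 25180000 are the facing edges of neighbouring TADs with a gap of over 100 kb between them.

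The histone genes were therefore divided among 4 TADs in each list. In control siRNA, 11 genes from HIST1H2AA to HIST1H1C lay in the first of these TADs and 23 from HIST1H4C to HIST1H4H in the next, together with the 7 butyrophilin genes. A further 8 lay from HIST1H2BJ to HIST1H3H and 7 from HIST1H2AL to HIST1H2BO, and the others lay between TAD edges. In CTCF siRNA the counts were 11, 19, 8 and 13. The second TAD was 960 kb long in both lists and the third 680 kb long, while the TAD left of the first boundary was 1720 kb in control siRNA and 920 kb in CTCF siRNA.

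Contacts across these boundaries were scarce. Over 400 kb on each side, the first control boundary was crossed at 0.335 of expected (0.257 to 0.428) in control siRNA and 0.336 (0.301 to 0.375) in CTCF siRNA. The second was crossed at 0.359 (0.238 to 0.519) and 0.515 (0.443 to 0.596), and the third at 0.444 (0.351 to 0.554) and 0.491 (0.444 to 0.542). Over 200 kb on each side the values were 0.546 and 0.559 for the first, 0.256 and 0.371 for the second, and 0.321 and 0.378 for the third. The CTCF siRNA over control siRNA ratios were 1 (0.765 to 1.34), 1.44 (0.96 to 2.22) and 1.11 (0.866 to 1.43). All 3 intervals included 1, so no change across the control boundaries was detectable at this depth. At the position of the second boundary in the CTCF siRNA list the ratio was 1.48 (1.02 to 2.2). Boundaries found only in that list had ratios of 0.894 (0.778 to 1.03) at chr6:24740000 and 1.12 (0.968 to 1.31) at chr6:25060000. At chr6:25180000 the ratio was 1.06 (0.902 to 1.24) and at chr6:28860000 it was 0.724 (0.62 to 0.847). Of these, only the interval at chr6:28860000 lay below 1, and at the others no change was detectable.

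The parts of the first group on either side of its boundary were also taken separately. The 2 bins on the left, with HIST1H1A to HIST1H3C, stood at 5.1 (1.65 to 11.9) with the last group in control siRNA and at 3.06 (1.71 to 5.04) in CTCF siRNA. The 5 bins on the right stood at 8.44 (5.08 to 13.2) and 3.6 (2.6 to 4.87). With the middle group, the left bins had 2 read pairs in control siRNA, or 3.54 (0.428 to 12.8), and stood at 2.38 (0.956 to 4.9) in CTCF siRNA, both with intervals that included 1. The right bins stood at 5.09 (2.05 to 10.5) and 3.48 (2.28 to 5.1) with it. Between the left and right bins themselves, contacts stood at 0.93 (0.576 to 1.42) and 0.78 (0.64 to 0.943). The right bins met the SLC17 and TRIM38 bins beyond the boundary at 0.22 (0.114 to 0.384) and 0.341 (0.272 to 0.422). The histone groups on both sides of the boundary thus exceeded expected with the last group, while contacts across the boundary within 400 kb did not reach expected.

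Since the histone groups lie at boundaries, other pairs of control boundaries 600 to 2000 kb apart are given beside them, each as 3 by 3 bins. At least 2 was reached in control siRNA by 17.4% of 4365 such pairs, with a median of 1.07. Pairs with few expected contacts were left out of this background. The boundary of the first group with that of the last had 0.889 expected in control siRNA, too few to enter it. For this pair 17.4% is therefore not the share of like pairs. It stood at 6.75 (2.48 to 14.7) in control siRNA and 3.41 (2.02 to 5.38) in CTCF siRNA. The middle with the last stood at 3.51 (2.33 to 5.07) and 1.92 (1.5 to 2.42), and the first with the middle at 2.24 (0.823 to 4.88) and 1.38 (0.89 to 2.03). Among boundary pairs of at least 2 in control siRNA, which were chosen for that value, the median was 2.68 in control siRNA and 1.72 in CTCF siRNA.

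To describe insulation, contacts that span a bin were divided by their expected number, and this by the same quotient for contacts inside the 400 kb on its left and on its right, with distance alone as the expected value and the result on the log2 scale. Lower values mean fewer contacts across. The 3 lowest of the 92 bins with a value in control siRNA were all in the first group, at -2.54 ± 0.22 (SD of 200 Poisson redraws) in the bin of HIST1H1A and HIST1H4A, -2.37 ± 0.23 in the bin of HIST1H1C and HIST1H2BB, and -2.11 ± 0.19 in the bin of HIST1H1T, HIST1H4C and HFE. The 3 lowest in CTCF siRNA were also there, at -2.10 ± 0.08 and -2.10 ± 0.09 in the next bins and -2.08 ± 0.09 in the bin of HFE. The median of the 12 histone bins with a value, here with the distal bin and without the middle bin, was -1.40 and -1.41. Over all autosomal bins it was 0.02 and 0.08. Bins that held a boundary of both lists had a median of -1.06 in control siRNA and -0.67 in CTCF siRNA over the autosomes. The bin of the middle group had too many unusable neighbours for a value with this flank. With flanks of 200 kb it stood at -2.56 and -2.44, and with flanks of 800 kb at -0.83 and -0.52.

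**Figure D5:**
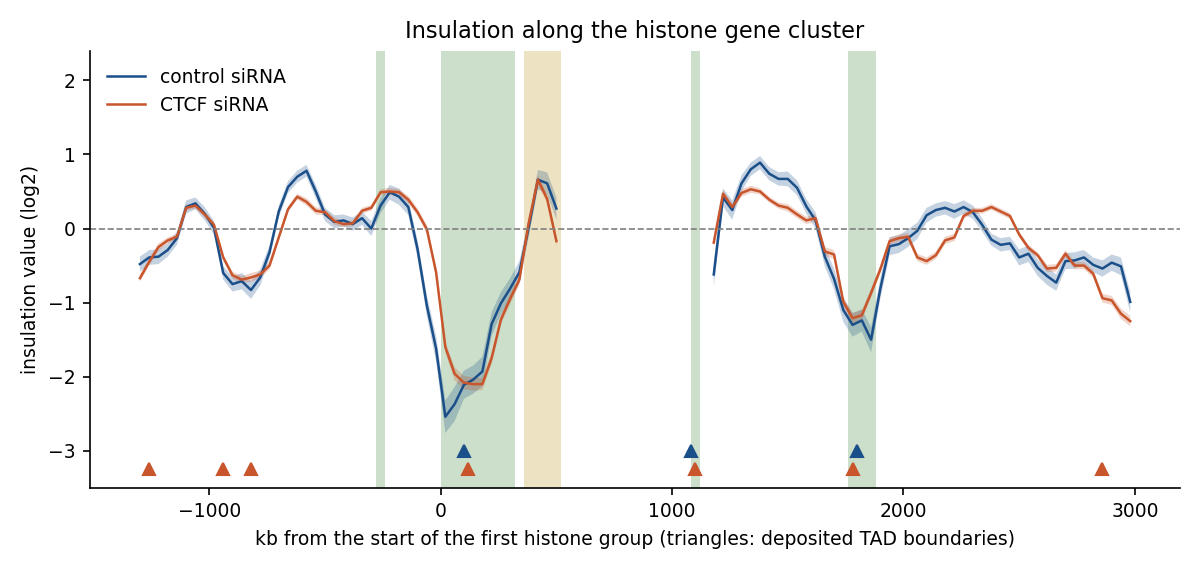
Insulation value (log2) of the bins of the window against distance in kb from the start of the first histone group, in control siRNA (blue) and CTCF siRNA (orange); bands are 1 SD of 200 Poisson redraws, green bands are histone bins, the yellow band is the butyrophilin bins, triangles are deposited TAD boundaries, and gaps are bins without a value. Both maps have their deepest minimum over the first group and another over the last group, CTCF siRNA is about as low at the right end of the window (-1.25), and 3 boundaries of each list lie at the histone groups.

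At the boundary bins the change in insulation value was within its SD. In the bin of HIST1H1T, HIST1H4C and HFE the change from control to CTCF siRNA was 0.04 ± 0.21, and in the first bin of the last group 0.10 ± 0.18, against a median of 0.32 over autosomal bins with a boundary of both lists. With flanks of 800 kb these changes were 0.38 and -0.13. Other bins near them had larger changes. The largest rise in the window was 1.03 ± 0.18 in the bin of TRIM38 (chr6:25960001-26000000), next to the first group, followed by 1.02 ± 0.15 in the bin of SLC17A2 and 0.94 ± 0.23 in the bin of HIST1H1A and HIST1H4A. The last bin of the last group, with HIST1H2AM and HIST1H4L, rose by 0.63 ± 0.18. The bin of HIST1H1D and HIST1H2AE moved the other way, by -0.47 ± 0.18. These changes use distance alone as the expected value. With bin coverage in it too, the bin of TRIM38 went from -1.41 to -0.50 and that of SLC17A2 from -0.89 to 0.04. The bin of HIST1H1A and HIST1H4A then went from -2.18 to -1.47, and that of HIST1H1D and HIST1H2AE from -1.06 to -1.56. The largest fall in the window, -0.64 ± 0.14, lay outside the histone genes (chr6:28920001-28960000). By these values the lowest bins over the first group lay further right in CTCF siRNA than in control siRNA, while the boundary there was shared. The lowest bins in CTCF siRNA differed by less than their SD and neighbouring bins share contacts, so the place of the minimum was not resolved.

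Histone genes also lie on chromosome 1, at the HIST2 locus (chr1:149760001-149880000) and the HIST3 locus (chr1:228600001-228680000). The 3 HIST1 groups had 0 read pairs with either locus in control siRNA, where 0.0797 and 0.0624 were expected from the coverage of the bins between chromosomes. In CTCF siRNA they had 2 with HIST2 against 0.18 expected, or 11.1 (1.35 to 40.1), and 1 with HIST3 against 0.216, or 4.63 (0.117 to 25.8). The butyrophilin bins had 0 with either locus in both maps, where 0.0966 and 0.116 were expected in CTCF siRNA. With 1 neighbouring bin added on each side, the HIST1 groups had 4 read pairs with HIST2 in CTCF siRNA against 0.586, or 6.82 (1.86 to 17.5), and the butyrophilin bins had 1 against 0.277. A handful of read pairs carries these values, and at this depth they are given as counts only.

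Nearly identical genes can draw reads from each other when reads are mapped, so the sequence shared between groups was counted. Of the 50-base words of the last group, 0.202% also occurred in the first group, and of those of the middle group 0.29% did. The longest exact repeat between the first and last groups was 104 bases, at HIST1H2BE and at the neighbours HIST1H2AK and HIST1H2BN. That between the first and middle groups was 80 bases, at HIST1H2BC and HIST1H2BJ. Between the first group and the butyrophilin bins, 0.0203% of the butyrophilin words were shared, with a longest repeat of 64 bases. How many of the contacts between histone groups came from reads that fit more than 1 gene was not tested.

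The bins were also described by where their contacts went. Contacts were summed over the bins of a set, so a read pair that joins 2 of its bins counts for both. In control siRNA this held for 105 read pairs within the first group, 30 within the last and 45 between groups. It also held for 182 within the butyrophilin bins. None of these spans over 2 Mb, which lowers the shares of these sets, and the intervals do not allow for it. Differences between sets can therefore not be read from the shares. Of the contacts of the 3 histone groups within chromosome 6 and outside their own bin, 379 of 1588 reached over 2 Mb in control siRNA, or 23.9% (21.8 to 26 by the Wilson method), and 1432 of 7553 in CTCF siRNA, or 19% (18.1 to 19.9). In control siRNA the share was 27.2% (24.5 to 30) in the first, 17.1% (11.2 to 25.2) in the middle and 19% (15.8 to 22.6) in the last. In CTCF siRNA they stood at 19.7%, 14.5% and 18.1%. For the butyrophilin bins they were 191 of 884 (21.6%) and 820 of 5294 (15.5%), for the bins between the groups that hold neither family 19.1% and 15.8%, and for chromosome 6 as a whole 22.6% and 18.2%. Cis contacts, summed in the same way, made up 37.8% of all contacts of the histone bins in control siRNA and 53.1% in CTCF siRNA. For the butyrophilin bins they made up 45.6% and 63.7%. Counting a read pair for both of its bins raises these shares. The bins between the groups that hold neither family stood at 42.6% and 56.2%, the distal bin at 40.2% and 45.4%, and chromosome 6 as a whole at 47.4% and 56%.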

How the data were processed

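Hi-C was measured in LNCaP cells, with groups taken from the siRNA treatment label. Per the labels, BglII was the enzyme, and the authors checked reads with FastQC 0.11.2, mapped them to hg19 with Bowtie 1.1.0 inside HiCUP, sorted them with SAMtools 1.2, tagged duplicates with Picard 1.121, and pooled the libraries of each condition into 1 map of 40 kb bins. TADs came from a directionality index and a hidden Markov model. Judged from the values, each deposited contact value is a count of read pairs scaled by factors for the positions of its bins, the same on every chromosome, with no scaling for depth. What the factors correct is not given in the sources used here. The deposited TAD lists hold positions in bases, with no score.

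Here, factors were estimated from the values by alternating least squares and whole counts were recovered, of which 99.93% in control siRNA and 99.95% in CTCF siRNA were whole, against 2.284% and 2.399% if remainders were random. Pairs with the off-grid last bin of a chromosome were left out (90 and 252 pairs). Bins needed 10% of the chromosome's median cis count in both maps. The expected count was a coverage term per bin times the decay with distance, fitted per chromosome over 40 rounds, and contacts within a bin were left out. Intervals at 95% are exact Poisson, exact conditional binomial for ratios, and Wilson for shares, and they cover counting error only. PCR duplicates, libraries and the error of the expected value are outside them. Methods were tested on simulated data. Python 3.11.15, NumPy 2.4.6 and SciPy 1.17.1 were used, with GRCh37 and GENCODE genes. Placements needed 80% of their pairs usable.

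The members, gene lists and comparisons were chosen with earlier results of these data known. Named genes are all HIST1 genes, the 7 butyrophilin genes, genes in boundary bins, and bins with the lowest insulation value or the largest change. Alternatives are an expected value from distance only, values as deposited, an autosomal decay, whole group spans, a thinned CTCF siRNA map (24.3% of its cis contacts, 5 draws), other flanks, spans and tolerances, and, chosen after the data were seen, coverage from interchromosomal contacts, histone pairs left out of the fit, and single bins left out.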

Additional observations from a re-analysis of the deposited data

How the results depend on the processing

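Of 217 values recomputed under an alternative, 178 stayed within the 95% interval, the SD or 1.5 times the count of the reported value, 34 moved beyond it and 5 crossed 1 from a value whose interval had not included 1. Values whose interval included 1 could cross it too and are among the others. With the expected value from distance only, the histone groups with each other stood at 1.87 in control siRNA and 1.14 in CTCF siRNA, the first with the middle at 1.1 and 0.978 (crossing 1), the first with the last at 2.6 and 1.56, and the middle with the last at 1.8 and 0.616. Under it the histone groups with bins of neither family stood at 0.74 and 0.818 with a ratio of 1.11 (all 3 crossing 1), the other pairs at the same distances at 0.598 and 0.751 with a ratio of 1.26, the first group within itself at 0.287 and 0.48 with a ratio of 1.67, the last group within itself at 0.456 and 0.356, and the histone over butyrophilin ratio in CTCF siRNA at 1.37. With coverage from interchromosomal contacts, the butyrophilin genes with the middle and last groups stood at 1.5 in CTCF siRNA, the bins of neither family at 1.49 in CTCF siRNA with a ratio of 0.971, the other pairs at 0.976 and 1.08 (the second crossing 1) with a ratio of 1.11, and the first group within itself at 0.773 and 1.18 with a ratio of 1.53. The other pairs stood at 0.969 and 0.901 with the decay of all autosomes, and at 0.875 in CTCF siRNA with values as deposited. With flanks of 800 kb the insulation change was 0.38 at the boundary bin of the first group and -0.13 at that of the last. With a span of 200 kb, contacts across the control boundaries stood at 0.546 and 0.559 for the first group, 0.371 in CTCF siRNA for the middle group, and 0.321 and 0.378 for the last. The cause was not tested. The pooled value of the 3 histone pairs and its ratio stayed within their intervals under every other alternative run for them, including a CTCF siRNA map thinned to the control's depth. Using every bin from the first to the last of a group could change nothing, because the histone bins of each group adjoin. The values of this setting are nevertheless among the 217 and the 178. Insulation change at the middle group could not be computed with flanks of 400 kb. At the control's depth, 3.52 expected read pairs between the first and last groups limit how finely their value is known. No paired analysis was possible because each map is a pool of its libraries, which also prevented leaving out any library.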
